A study of Mus musculus with 4 samples.

Results

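Cxcl12-abundant cells of the vertebrae were taken as cells with more than 750 UMIs (unique molecular identifiers, a count of captured transcripts), more than 500 genes and under 7% mitochondrial UMIs that held at least 10 Cxcl12 UMIs, or at least 1 Cxcl12 UMI with at least 3 UMIs of Lepr, Adipoq and Kitl together. Cells with more than 2 UMIs of the cartilage gene Acan, or with any UMI of Ptprc (leukocyte) or Cdh5 (endothelium), were left out. The rule kept 113 of 1757 passing cells (6.43%), of which 88 passed on Cxcl12 alone and 25 by the second criterion. These 7 genes therefore chose the cells, and their levels are given below as a description. The cells came from 4 single-cell libraries of mouse thoracolumbar vertebrae (T11 to L2) in which tdTom marks the Prss56-Cre lineage. The control libraries carried Prss56Cre/+;R26tdTom/tdTom;Nf1+/+ and the mutant libraries Prss56Cre/Cre;R26tdTom/tdTom;Nf1fl/fl, each at 3 months and at 12 to 16 months. The mutant label thus comes with 2 Cre alleles and the control label with 1, and all groups carry the tdTom reporter. Prss56-Cre is active in boundary cap cells, a subset of the neural crest, so the floxed alleles are recombined in that lineage. Live tdTom+ cells free of CD11b, CD31 and CD45 were sorted, which removes most blood and endothelial cells. Each condition is 1 library and the labels do not give the number of mice in it, so no difference between conditions below has a replicate check. Contrasts between cells of the same library were repeated over the 4 libraries, each of a different condition. Every interval (95%, exact) covers counting error only.

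In bone marrow, Cxcl12-abundant reticular cells are perivascular stromal cells that hold and feed hematopoietic stem cells and lymphoid progenitors. Cxcl12 is the chemokine that retains these cells and Kitl (stem cell factor) is a growth factor they need, while Lepr, the leptin receptor, marks most of the stromal cells of adult marrow. Adipoq encodes adiponectin and marks the part of this population closest to adipocytes. Such cells are known to be able to form both fat and bone, and other members of the population express bone genes already.

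The 24, 15, 15 and 59 members of the control and mutant libraries at 3 months and the control and mutant libraries at 12 to 16 months made up 3.35% (2.16 to 4.94), 3.10% (1.74 to 5.06), 11.1% (6.35 to 17.7) and 14.0% (10.8 to 17.7) of the passing cells. The 2 older libraries held larger shares than the 2 younger ones with intervals that did not overlap, whereas the intervals of mutant and control overlapped at both ages. Age and library cannot be told apart here. The same libraries differed in how much cartilage they held: 562, 377, 89 and 258 passing cells were chondrocytes (more than 2 Acan UMIs with Sox9). Among the cells with little Acan and no Ptprc, members were 18.75% (12.4 to 26.6), 27.8% (16.5 to 41.6), 38.5% (23.4 to 55.4) and 49.2% (39.9 to 58.4), and there the intervals of older and younger libraries overlapped in part. The median member held 14030, 11822, 18629 and 9109 UMIs. Each cell was also thinned to 750 UMIs, with a changed rule: at least 2 Cxcl12 UMIs, no Acan UMI and no second criterion. The shares were then 1.95%, 2.48%, 6.67% and 9.26% in the same order of libraries, so depth and rule changed together. Counting only members that passed on Cxcl12 alone, they were 2.37%, 2.48%, 7.41% and 11.6%. Neither set of shares has an interval here, so their overlap between ages is not given. The 4 libraries held 922, 542, 163 and 545 cell barcodes with 9830308, 7450598, 2226130 and 4680954 UMIs, of which 717, 484, 135 and 421 passed the filters. No cell barcode was shared between libraries, and of 19 cells called as doublets 1 was a member. The plot of shares by library shows these values beside the make-up described next.

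**Figure D1:**
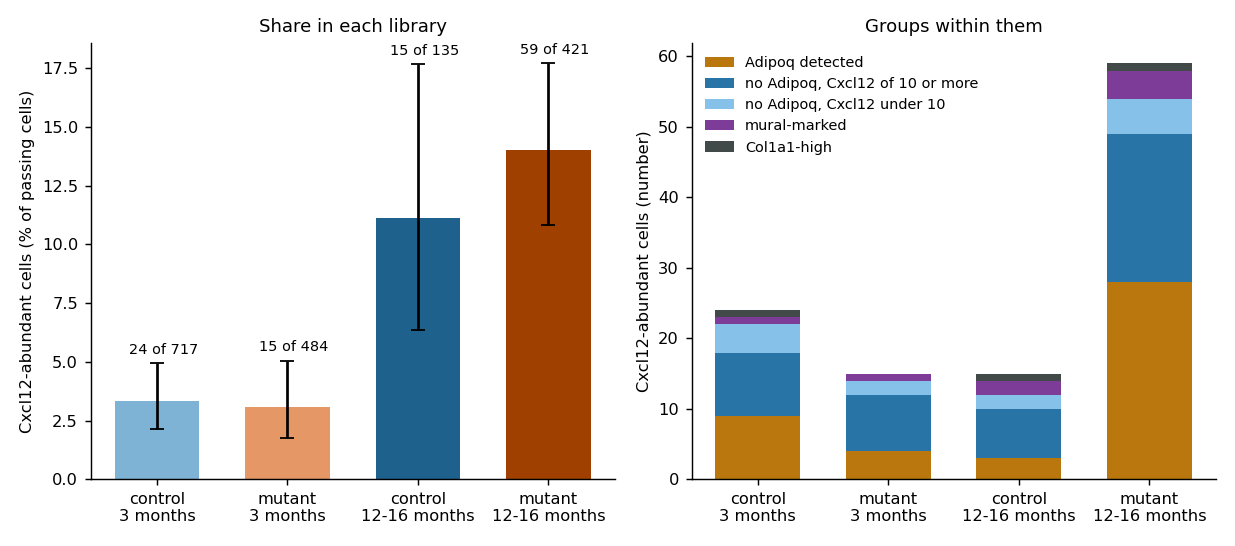
Left, Cxcl12-abundant cells as a percentage of passing cells in each library, with exact 95% binomial intervals and the number of cells. Right, number of these cells by group within each library. The libraries at 12 to 16 months hold 11.1% and 14.0%, those at 3 months 3.35% and 3.10%, and cells with Adipoq are 28 of the 59 members of the older mutant library.

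The marrow stromal label was checked on markers that the rule did not use, although a gene measured in the cells that the rule chose gives no independent test. Of 20 marrow stromal identity genes, 19 had enough UMIs to be compared, and all 19 were higher in members than in the other cells of the same library in 4 of 4 libraries, as were 2136 of all 8454 genes compared. Bst1 was at 0 in every member. The other cells are the 228 passing cells with at most 2 Acan UMIs and no Ptprc that were not members. Sox10, the glial factor, and Prss56 were also at 0 in all members, and Pecam1 (endothelium) and Lyz2 (myeloid) were found in 1 cell each. tdTomato itself was read in 0, 0, 2 and 7 members, at 0, 0, 7.16 and 18.6 CPM (UMIs per gene, pooled over the chosen cells of a library and scaled to a common total), beside 3.39, 11.2, 11.2 and 19.5 CPM in the other cells. Nf1 was read at 184, 255, 190 and 180 CPM in members, but 3′ tags can lie outside the floxed part, so this level does not check the deletion.

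Not all members carried the label's profile. Of the 113 cells, 8 held at least 20 UMIs of the smooth muscle and pericyte genes Acta2, Tagln, Myh11 and Rgs5, and 3 held at least 1000 UMIs of Col1a1, the main bone collagen. These thresholds were set after the values were seen. The 8 mural-marked cells (1, 1, 2 and 4 by library) had a median of 1.5 Cxcl12 UMIs and entered mainly through Kitl, which 42 of the 44 mural cells outside the rule also expressed. They carried all Acta2 and Fabp4 UMIs of the members, which were at 0 in all 4 libraries without them. Summed over the mural list, members stood at 797, 3490, 4068 and 1771 CPM and the other cells at 7565, 17262, 132 and 9407 CPM, with Rgs5 the most abundant gene in members. The 3 Col1a1-high cells (1, 0, 1 and 1) held a median of 54454 UMIs and 2 of Cxcl12. With all members, Bglap (osteocalcin) was at 12152 CPM in the control library at 3 months, and without the 11 cells it was at 364. The remaining 102 cells are called the core below, and values without the 11 cells are given for several of the genes that they move. Tagln, Myh11 and Rgs5 stood at 0 to 37.5 CPM without them, against 47.8 CPM and more for Acta2 and these 3 genes with all members.

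Just inside the rule lay 10 members with 10 to 12 Cxcl12 UMIs and, among the 25 with fewer than 10, 4 with exactly 3 UMIs of Lepr, Adipoq and Kitl. Just outside lay 23 other cells with 1 to 9 Cxcl12 UMIs, 8 of them with exactly 2 UMIs of these 3 genes. Members held 1 to 715 Cxcl12 UMIs with a median of 60, so the population is a range with no gap at its lower edge. A further 4 cells had at least 10 Cxcl12 UMIs but too much Acan (3) or some Ptprc (1).

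The genes of the rule came first. Cxcl12 (chr6:117168535-117181367, GRCm38, plus strand) was at 6110, 10940, 7052 and 11322 CPM in members of the control and mutant libraries at 3 months and the control and mutant libraries at 12 to 16 months, against 22 to 32 CPM in the other cells. Lepr was at 496, 596, 712 and 1054 CPM, Kitl at 731, 1569, 673 and 1233 CPM and Adipoq at 701, 322, 336 and 614 CPM. Cxcl12 was the most abundant of the 4 in every library, and at least 1 Lepr UMI was read in 97 of 113 members. Adipoq was read in 44 members only, in contrast to Kitl, which was read in 110. Of the chondrocytes, 4.28% had a Cxcl12 UMI, 11.0% a Lepr UMI, 0.233% an Adipoq UMI and 0.467% a Kitl UMI. Their median depth was 12114 UMIs, beside 11654 UMIs in members. Free RNA in the droplets or expression in the chondrocytes themselves can give such shares, and which of them did was not tested.

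Across all genes, the members were set against the other cells of their own library. Of 8454 genes with at least 50 UMIs, 133 were at least 4-fold higher in members in every library (1.57%) and 35 at least 4-fold lower (0.414%), with the rule's genes left out. The rule used this contrast, so these counts describe the cells and test nothing. On edgeR's TMM scale, which corrects for the makeup of each cell group, the counts were 99 and 51. The lower count was 173 without the control library at 12 to 16 months and 62 without the mutant library of that age. It was 50 and 46 without the control and the mutant library at 3 months. Leaving a library out can only keep or raise such a count, since a gene must pass in every library used. In the control library at 12 to 16 months the other cells were 87.2% osteoblast-lineage by UMIs and held no mural cell, and its part in the count was not tested. In the remaining libraries osteoblast-lineage cells gave 54.8%, 7.39% and 42.4% and mural cells 17.9%, 53.4% and 30.3% of the other cells' UMIs.

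Svep1, a large matrix adhesion protein, led the order at 107, 189, 186 and 287 CPM in members, with 0 UMIs in the other cells of 3 libraries and 1 UMI in the mutant library at 12 to 16 months. Esm1 (endocan, a secreted proteoglycan) followed at 403, 468, 261 and 563 CPM against at most 3.39 CPM elsewhere. Hp encodes haptoglobin, which binds free hemoglobin (chr8:109575128-109579172), and was at 1027, 1161, 1209 and 1704 CPM. In the other cells Hp was at 10.2, 0, 11.2 and 9.76 CPM, a 101-fold (46.0 to 277), at least 138-fold, 108-fold (45.8 to 335) and 175-fold (74.6 to 539) difference. The chemokine Cxcl14 was at 704, 730, 962 and 884 CPM with 75.5-fold to 430-fold higher levels than in the other cells, but unlike Hp it was read in 31.6% of chondrocytes. All 4 libraries placed these 4 genes far above the other cells, with no overlap between the 2 groups of values.

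Several of the others act on blood cells, vessels or the matrix. Il7, the growth factor of B and T cell progenitors, was at 79.7, 79.1, 64.4 and 66.7 CPM in members and had no UMI in the other cells of any library, so it was at least 15.7-fold, 9.38-fold, 9.58-fold and 11.4-fold higher. The kininogens Kng1 and Kng2, the interleukin-1 receptor antagonist Il1rn, the retinoic acid enzyme Aldh1a2 and the complement gene C6 were likewise at or near 0 elsewhere. Pappa, a protease that cleaves the IGF-binding protein Igfbp4, was at 317, 900, 555 and 1116 CPM, and Igfbp4 itself at 2781, 2797, 2683 and 3338 CPM. Fbln5 (elastic fibre assembly) reached 608 to 941 CPM and Gas6, a ligand of the TAM receptors, 672 to 2299 CPM. Rspo3, which amplifies Wnt signals, was at 112, 122, 96.6 and 116 CPM, a level that hardly varied between libraries. Csmd1, a complement regulator of the membrane, stood out by its abundance at 2054, 3223, 1832 and 5180 CPM. Ccl19 is listed at more than 1 locus in the annotation, so its level (24.3 to 154 CPM for the copy on chromosome 4) is uncertain. Also among the 25 highest were Gpm6b, Ptgfr, Shroom3, Dpep1, Fmo2, Nrg2, Gm46329, Cyp1b1 and Gdpd2.

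**Figure D2:**
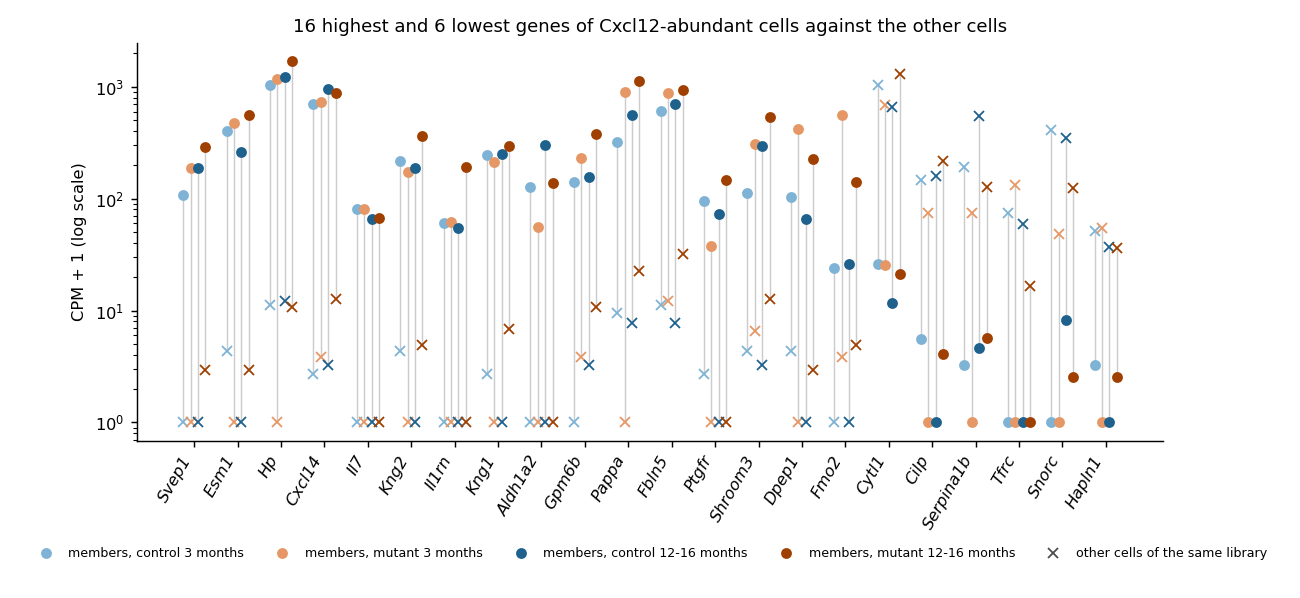
CPM + 1 (log axis) of the 16 highest and 6 lowest ranked genes in Cxcl12-abundant cells (circles) and in the other cells of the same library (crosses), coloured by library. A point at 1 is a gene with no UMI, as for Il7 in the other cells of all 4 libraries, and the 2 groups of values do not overlap for any gene shown.

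Among the lowest genes, Cytl1, secreted by chondrocytes, was at 25.1, 24.3, 10.7 and 20.2 CPM in members against 1032, 680, 663 and 1298 CPM in the other cells. Tfrc (transferrin receptor), Gch1, Itga4 and Sptb, the erythroid spectrin, were at 0 in all members. The remaining ones were Cilp, Serpina1b, Snorc, Hapln1, Cd24a, Ucp2, Hist1h2ae, Fgd5, Ucma and Cnmd. Some of the other cells held hemoglobin RNA: Hbb-bs was at 1942, 23203, 15268 and 3.90 CPM in them and at 13.7, 0, 21.5 and 3.10 CPM in members. Red cell RNA was therefore not a feature of the members in any library, and the older mutant library was nearly free of it in both groups.

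Marrow stromal identity genes had the highest median of the lists fixed for members. Of the 19 compared, 8 (Ebf3, Gas6, Hp, Trf, Cxcl14, Esm1, Snai2 and Chrdl1) were at least 4-fold higher in every library, as were 133 of all 8454 genes. The list's median log2 ratio was 3.03 against 0.20 over all 8454 genes. Ebf3, a transcription factor that keeps the marrow niche, was at 424, 1125, 394 and 1065 CPM and 22.7-fold (12.4 to 46.3), 13.3-fold (9.04 to 20.3), 58.6-fold (19.5 to 288) and 32.1-fold (19.9 to 55.4) higher than in the other cells. Foxc1, another niche factor, was found in 102 of 113 members at 241 to 343 CPM, but its ratios were smaller, at 3.53 to 8.52, and 62.5% of chondrocytes had a UMI of it. Vcam1, an adhesion molecule for blood cells, was only 1.80-fold higher in the mutant library at 3 months, where mural cells gave 53.4% of the other cells' UMIs, and 38.3-fold higher in the control library at 12 to 16 months, whose other cells held no mural cell.

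Of 13 niche and growth signals compared, 5 (Fgf7, Il7, Csf1, Bmp6 and Tnfsf11) were at least 4-fold higher in every library (133 of all 8454 genes). The list median was 2.33. Csf1, which sustains macrophages and osteoclast precursors, was at 622, 669, 347 and 417 CPM and found in 103 members. Tnfsf11 (RANKL), the inducer of osteoclasts, was at 91.1, 128, 46.5 and 79.1 CPM, while its decoy receptor Tnfrsf11b was at 15.9, 12.2, 17.9 and 9.30 CPM, 0.618-fold to 1.14-fold the level of the other cells. Thpo (thrombopoietin) had no UMI in any member. Igf1 was at 169, 103, 53.7 and 202 CPM.

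Several genes of mature fat were not read or were scarce. Lep, Cfd, Cidec and Dgat2 had no UMI in any member and Plin1 was read in 2 cells. Among 15 genes of the adipogenic and lipid list, 1 (Cebpa) was at least 4-fold higher in every library (133 of all 8454 genes). The list's median log2 ratio was −0.58. Cebpa and Pparg, the factors that direct fat formation, were at 66.0, 158, 114 and 138 CPM and at 56.9, 146, 132 and 140 CPM. In the core Pparg was at 43.5, 99.6, 37.5 and 123 CPM. Lpl (lipoprotein lipase) was at 492, 547, 522 and 879 CPM and Apoe at 2940, 2621, 1431 and 3039 CPM. The mural cells of these libraries also expressed Lpl (41 of 44 cells) and the chondrocytes Apoe (1103 of 1286), so neither marks the members.

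Bone genes were split in the same cells. Runx2, the master factor of osteoblasts, was read in 105 of 113 members at 2305, 2445, 3152 and 3064 CPM, which was 3.20-fold, 79.1-fold, 2.11-fold and 4.82-fold the level of the other cells. Of 19 osteogenic genes 2, Mmp13 and Limch1, were at least 4-fold higher in every library (133 of all 8454 genes), with a list median of 0.95. In 4 of 4 libraries 7 were higher and 6 lower, beside 2136 higher and 606 lower of all 8454 genes. Mmp13 (collagenase 3, chr9:7272514-7283331, plus strand) was at 6069, 3764, 3649 and 3338 CPM against 788, 0, 352 and 812 CPM in the other cells. Ibsp (bone sialoprotein) was at 7397, 8702, 8122 and 3755 CPM and Tnc (tenascin C) at 4245, 5351, 4751 and 4842 CPM. The 13 members with fewer than 10 Cxcl12 UMIs and no Adipoq, which stay in the core, were rich in bone transcripts and had Esm1 in 1 cell and Il7 in 0. In the control library at 3 months they held 1790 of 3248 Ibsp UMIs and 9256 of 14618 Spp1 UMIs. In the core Col1a1 was at 3413, 2896, 3577 and 1101 CPM against 12564 to 150424 CPM in the other cells. This gap is partly built in, since the core leaves out cells with at least 1000 Col1a1 UMIs and the other cells had no such limit. The 3 members left out for Col1a1 held 7943, 5219 and 7350 UMIs of it. Dmp1, an osteocyte gene, was read in 12 of 113 members, and in the core it was at 76.1, 13.3, 75.0 and 81.8 CPM against 674, 0, 42.6 and 50.7 CPM in the other cells, with 2 UMIs behind the value of the mutant library at 3 months. S100b, which was listed as a glial gene, was at 186 to 228 CPM and at least 4-fold higher in every library, while Ngfr was read in 2 members.

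In the extracellular matrix list 1 of 21 genes, Col8a1, was at least 4-fold higher in every library (956, 632, 826 and 1929 CPM), beside 133 of all 8454 genes. The list median was 0.01. Of 10 compared acute phase and cytokine genes 3 (Hp, C3 and Ccl19) were at least 4-fold higher in every library, against the same 133 of 8454. In 4 of 4 libraries 6 were higher (2136 of all 8454 genes), with a median of 1.46, while Il6, Lif, Csf3, Saa3 and Lcn2 had no UMI in members. No gene of the ERK target and feedback list of 10 passed 4-fold, but 6 were higher in 4 of 4 libraries, against the same 2136 of 8454, and its median was 0.89, with Spred1 at 153, 182, 218 and 172 CPM. Immediate early and stress genes, which tissue digestion is known to raise, had a median of −1.64, and 10 of 14 were lower in members in 4 of 4 libraries, as were 606 of all 8454 genes. Summed over the cell cycle list, members were at 644, 66.9, 104 and 138 CPM and the other cells at 681, 972, 589 and 109 CPM, and Mki67 was read in 4, 0, 0 and 2 members. Of 16 cartilage genes 7 were at least 4-fold lower in every library (median −2.52), as were 35 of all 8454 genes. Of 8 fibroblast and periosteal genes 1, Ly6a, was (median −0.88), beside the same 35 of 8454. Mural, endothelial and hematopoietic lists had medians of −2.28, −4.33 and −3.49. With counts of 0 replaced by 3 these medians were −2.36, −3.10 and −2.26. Summed over the endothelial list, members were at 59.2, 66.9, 28.6 and 65.1 CPM and the other cells at 402, 1169, 6.72 and 802 CPM.

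Within the members, a number of genes varied along Cxcl12. Over the 113 cells, the share of UMIs given to Cxcl12 had Spearman correlations of 0.86 with Esm1, 0.84 with Gas6, 0.82 with Igfbp4 and Apoe, 0.82 with Cxcl14 and 0.78 with Ebf3 and Vcam1, the highest among 2756 genes found in enough cells with the genes of the rule left out (Lepr had 0.795). The lowest was −0.65 with Mef2c, and in the 102 core cells it was −0.72 with Mmp13, −0.71 with Col6a3, −0.70 with Lifr and Slit2 and −0.70 with Spp1. Over all 113 cells Mmp13 had −0.42, Col6a3 −0.58 and Spp1 −0.39. Adipoq ran with Hp (0.81), Apoe (0.78), Ltbp2 (0.78), Lpl (0.76) and Esm1 (0.75). These are descriptions over cells of 4 libraries that share library and depth, and the UMI total of a cell itself had a correlation of −0.36 with its Cxcl12 share. The map of 23 genes by cell shows the order.

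**Figure D3:**
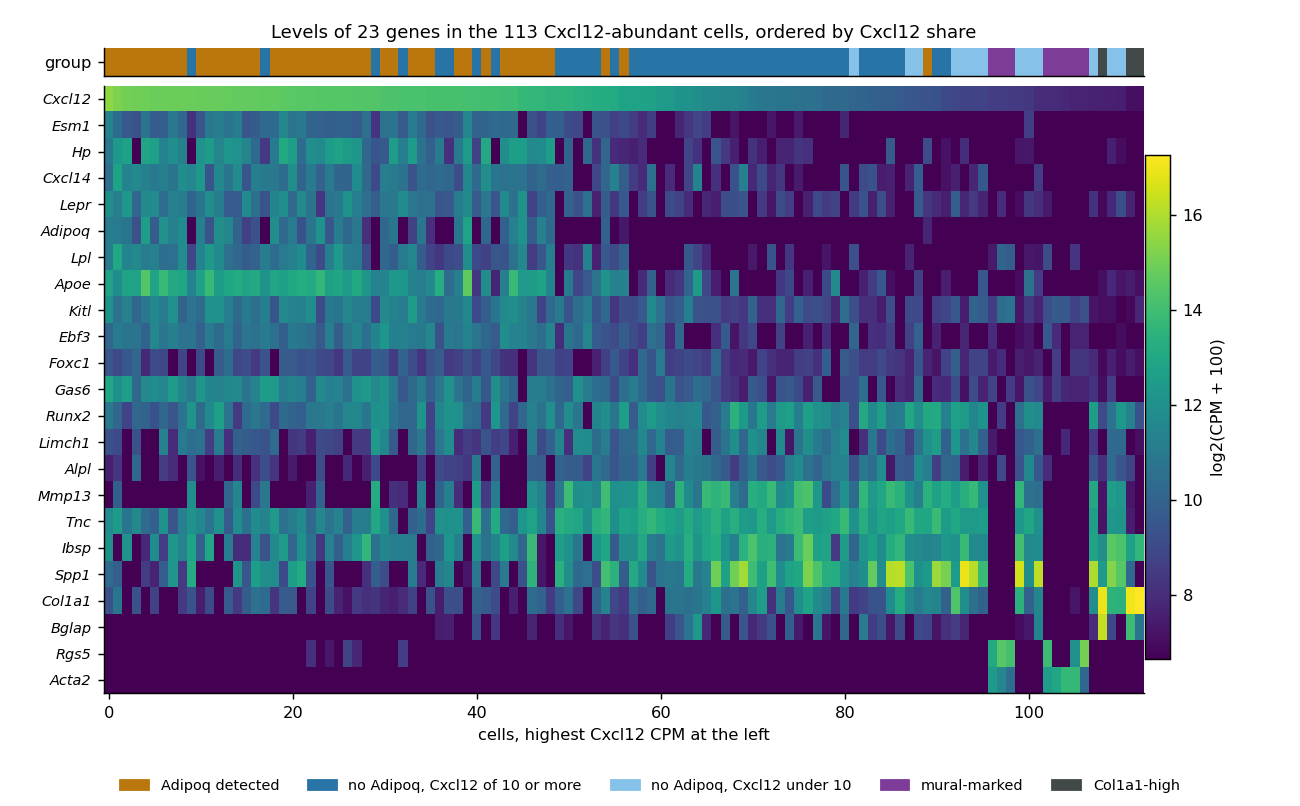
Level of 23 genes as log2(CPM + 100) in each of the 113 Cxcl12-abundant cells, with cells ordered from the highest Cxcl12 share on the left to the lowest on the right and the bar above giving the group of each cell. Esm1, Hp, Cxcl14 and Apoe fade from left to right, while Mmp13, Tnc and Spp1 become brighter among the core cells. The mural-marked cells with Rgs5 and Acta2 lie at the right and hold no UMI of Mmp13, Tnc or Spp1.

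To describe both ends, members with Adipoq (44 cells; 9, 4, 3 and 28 by library) were set against members with at least 10 Cxcl12 UMIs and no Adipoq (45 cells; 9, 8, 7 and 21), both without the 11 cells. This division was made after the values were seen and its cells were chosen by the same counts, so it carries no test. Median depth was 10020 and 11843 UMIs and the median Cxcl12 level 22402 and 3165 CPM. Of 4281 genes with enough UMIs, 23 were at least 4-fold higher with Adipoq in every library (0.537%) and 4 at least 4-fold lower (0.0934%).

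Hp ranked high among them. It was at 3615, 2914, 5421 and 3724 CPM with Adipoq and at 338, 224, 128 and 305 CPM without, when the cells of a group were summed. Single cells of both groups overlapped in the control library at 3 months and in the mutant library at 12 to 16 months. The iron carrier Trf (1872, 1574, 1779 and 1416 against 230, 316, 264 and 209 CPM), Apoe (10540, 5777, 5404 and 6089 against 920, 1134, 683 and 1078 CPM) and Mgp, the inhibitor of calcification (1402, 1658, 1930 and 1358 against 230, 277, 128 and 168 CPM), followed the same division. Il34, the second ligand of the Csf1 receptor, was at 221, 335, 252 and 383 CPM with Adipoq and at 0 to 39.6 CPM without. Pparg was read in 30 of 44 cells with Adipoq and in 7 of 45 without, and C3 (complement) in 30 and 3. The potassium channel gene Kcnq3 was read in 27 of 44 cells with Adipoq and in 0 of 45 without, which allows up to 6.67% of such cells to hold a UMI and sets no limit on cells that express it. Others by the same ranking were Dclk1, Efemp1, Clstn2, Itih5, Unc5c and Grk5. Of the 19 marrow stromal identity genes, 14 were higher with Adipoq in 4 of 4 libraries (511 of all 4281 genes were), with a median log2 of 1.88 against 0.00 over all.

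Mmp13 marked the cells at the other end. It was read in 45 of 45 members with at least 10 Cxcl12 UMIs and no Adipoq, in 13 of 13 with fewer and no Adipoq, and in 16 of 44 with Adipoq. Thinned to 1900 UMIs each, the shares were 96.0% without and 27.2% with Adipoq, so the difference was as large at equal depth. At full depth 1.71% of chondrocytes and 33.3% of osteoblast-lineage cells outside the rule had an Mmp13 UMI, and 0.786% and 29.1% after thinning. By library, Mmp13 was at 8669, 5168, 7461 and 7237 CPM without Adipoq and at 4196, 2579, 50.4 and 646 CPM with it. The values with Adipoq rest on few cells: 1 cell held 315 of the 455 Mmp13 UMIs of the control library at 3 months, 1 held all 154 of the mutant library at 3 months, and 1 held the 3 UMIs of the control library at 12 to 16 months. Bglap was at 426, 356, 328 and 337 against 46.1, 67.0, 0 and 10.8 CPM. Among these cells without Adipoq, 1 held 27 of the 36 Bglap UMIs of the older control library. Another held 21 of the 27 of the mutant library at 3 months. The vitamin D receptor Vdr was at 216, 606, 538 and 446 against 83.0, 134, 16.8 and 18.1 CPM, and Postn was read in 32 of 45 against 3 of 44 cells. Nlgn1 and Tenm4, adhesion proteins known from neurons, were at 514, 712, 984 and 751 against 111, 134, 0 and 10.8 CPM and at 960, 290, 100.2 and 346 against 184, 50.2, 16.8 and 65.0 CPM. Runx2 was read in all 44 cells with Adipoq and in 44 of 45 without, at 2803, 1926, 1594 and 2218 and at 2576, 2782, 4747 and 4262 CPM. The transcript of the bone factor was thus present at both ends, and higher without Adipoq in 3 of 4 libraries. Of 17 osteogenic genes 9 were lower with Adipoq in 4 of 4 libraries and 1 was higher (median log2 −1.38), beside 515 lower and 511 higher of all 4281 genes.

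**Figure D4:**
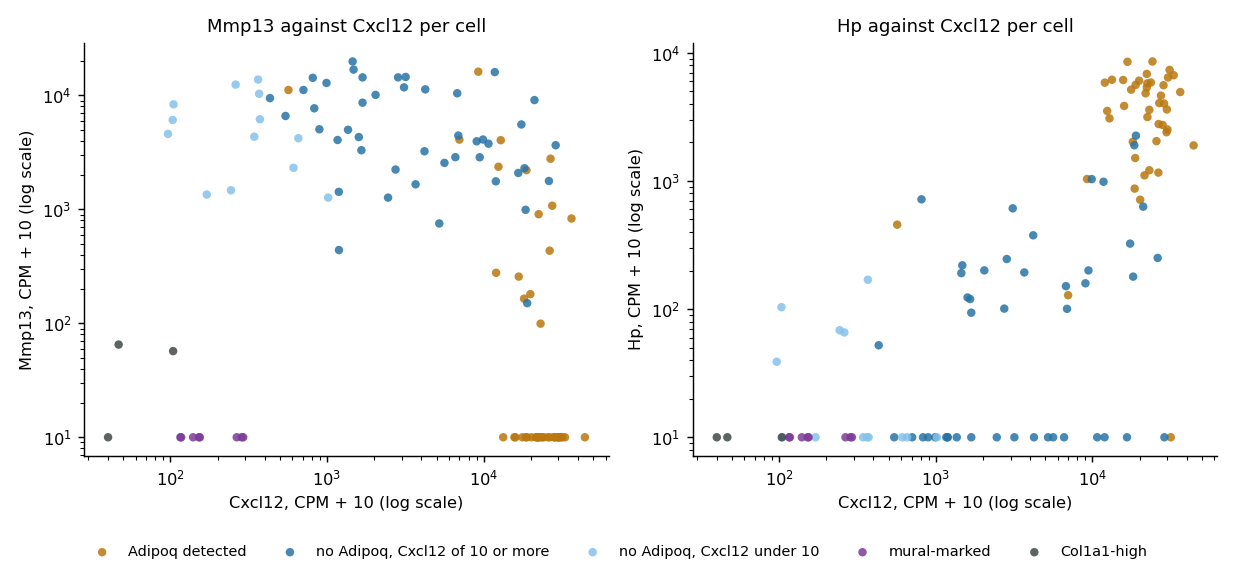
Mmp13 (left) and Hp (right) against Cxcl12 in each member, as CPM + 10 on log axes, coloured by group. Cells with Adipoq gather at high Cxcl12 with high Hp, 28 of the 44 without an Mmp13 UMI, whereas all 45 cells with at least 10 Cxcl12 UMIs and no Adipoq have Mmp13.

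The stretches before the starts of both genes are shown because their levels run against each other in cells that nearly all hold Runx2, whose protein is known to bind the letters TGTGGT. They are the 250 bases before the start in RefSeq's GRCm38.p6, chr9:7272264-7272513 for Mmp13 and chr6:117168285-117168534 for Cxcl12, both on the plus strand, with TGTGGT or its reverse complement ACCACA in capitals.
Mmp13: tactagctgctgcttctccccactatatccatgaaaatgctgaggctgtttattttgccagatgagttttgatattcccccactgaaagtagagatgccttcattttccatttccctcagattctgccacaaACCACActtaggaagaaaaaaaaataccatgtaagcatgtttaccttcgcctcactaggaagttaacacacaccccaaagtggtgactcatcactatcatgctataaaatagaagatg
Cxcl12: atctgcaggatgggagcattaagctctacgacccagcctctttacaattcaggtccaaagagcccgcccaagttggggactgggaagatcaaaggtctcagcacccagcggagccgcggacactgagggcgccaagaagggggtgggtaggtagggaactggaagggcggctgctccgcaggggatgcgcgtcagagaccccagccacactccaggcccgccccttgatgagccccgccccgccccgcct
The Mmp13 stretch holds 1 such match, starting 118 bases before the gene's start, and the Cxcl12 stretch holds 0. Of 32851 stretches of this length 4614 (14.0%) hold a match on either strand, and a match is only a run of letters.

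The series asks how loss of Nf1 in the Prss56 lineage affects the spine, so members were compared between the mutant and the control library of each age. Of 5500 genes with at least 50 UMIs in members, 118 were at least 2-fold higher under the mutant label at both ages (2.15%) and 33 at least 2-fold lower (0.6%). With TMM factors the counts were 75 and 48, and the median log2 ratio over all genes, 0.15 at 3 months and 0.10 at 12 to 16 months as CPM, was −0.09 and 0.07. Most of these genes, higher and lower alike, rest on few UMIs: with at least 200 UMIs required, 26 were higher and 7 lower.

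Igfbp3, a carrier of insulin-like growth factors, headed the order (chr11:7206086-7213923, minus strand). It was at 47.8 and 426 CPM in the control and mutant libraries at 3 months and at 21.5 and 184 CPM at 12 to 16 months, an 8.90-fold (5.40 to 15.3) and 8.59-fold (3.83 to 23.9) difference. It was read in 5 of 24, 6 of 15, 1 of 15 and 19 of 59 members and in no chondrocyte. The monooxygenase genes Fmo2 (22.8 and 559 CPM, then 25.05 and 140 CPM) and Fmo1 (27.3 and 109 CPM, then 14.3 and 101 CPM) were higher at both ages, 24.6-fold (12.8 to 52.9) and 5.57-fold (2.60 to 14.3) for Fmo2. Both were nearly absent from chondrocytes. Mecom, a zinc finger factor, was 4.58-fold (1.66 to 13.7) and 9.17-fold (4.10 to 25.5) higher. Col3a1, the fibrillar collagen of soft tissue, was at 9.11 and 54.7 CPM and then at 0 and 89.9 CPM, read in 1, 2, 0 and 13 members. Serpina3n rested on 2 UMIs in the mutant library at 3 months, and Thbs2 on 10, 19, 2 and 22 UMIs.

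Several of the 10 highest had mutant-to-control ratios above 1 in cells outside the rule too. Gm8797 was 32.2-fold (24.2 to 43.7) and 5.12-fold (2.68 to 11.0) higher under the mutant label in the chondrocytes of the same libraries. AA465934 was 18.3-fold (12.2 to 28.4) and 11.7-fold (5.56 to 29.5) higher there. Zbtb16, a transcription factor, was 14.7-fold (6.08 to 42.9) and 5.13-fold (2.24 to 14.4) higher in members and 6.69-fold (6.06 to 7.39) and 1.81-fold (1.43 to 2.32) higher in chondrocytes. Col3a1 was 3.999-fold (2.22 to 7.51) and at least 28.7-fold higher in the other cells, but 0.229-fold and 0.0539-fold in chondrocytes. Thbs2 was 1.30-fold and 3.63-fold in the other cells and 1.14-fold and 2.56-fold in chondrocytes. In chondrocytes Mecom (0.513-fold and 0.415-fold) and Serpina3n (0.655-fold and 0.647-fold) were lower under the mutant label, whereas in the other cells at 12 to 16 months they were 6.24-fold (2.65 to 17.9) and 36.6-fold (6.22 to 1479) higher. At 3 months both were at 0.276-fold there, on 6 UMIs and 1 UMI.

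The genes lowest under the mutant label mostly rested on few UMIs. Pclaf, which binds PCNA at the fork, was at 100.2 and 6.08 CPM at 3 months and 25.05 and 3.10 CPM at 12 to 16 months, with 19 of the 44 UMIs of the younger control library in 1 cell. Pola1 and Atad2 showed the same unevenness. Robo2, a Slit receptor, was at 239 and 60.8 CPM and then at 583 and 136 CPM, read in 7, 1, 4 and 6 members, and 1 cell gave 129 of the 163 UMIs of the older control library. Dmp1 was 0.293-fold at 12 to 16 months with all members and 1.09-fold in the core. Eif2ak2, a sensor of double-stranded RNA, was spread over 11, 1, 9 and 12 members at 54.7, 6.08, 93.0 and 26.4 CPM. Spns2, Ramp1, Med6 and Pcsk6 completed the 10. In the core, Ramp1 was 0.453-fold and 0.674-fold, so it was not 2-fold lower at 12 to 16 months, and Pcsk6 was left with 2 UMIs in each library of that age.

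**Figure D5:**
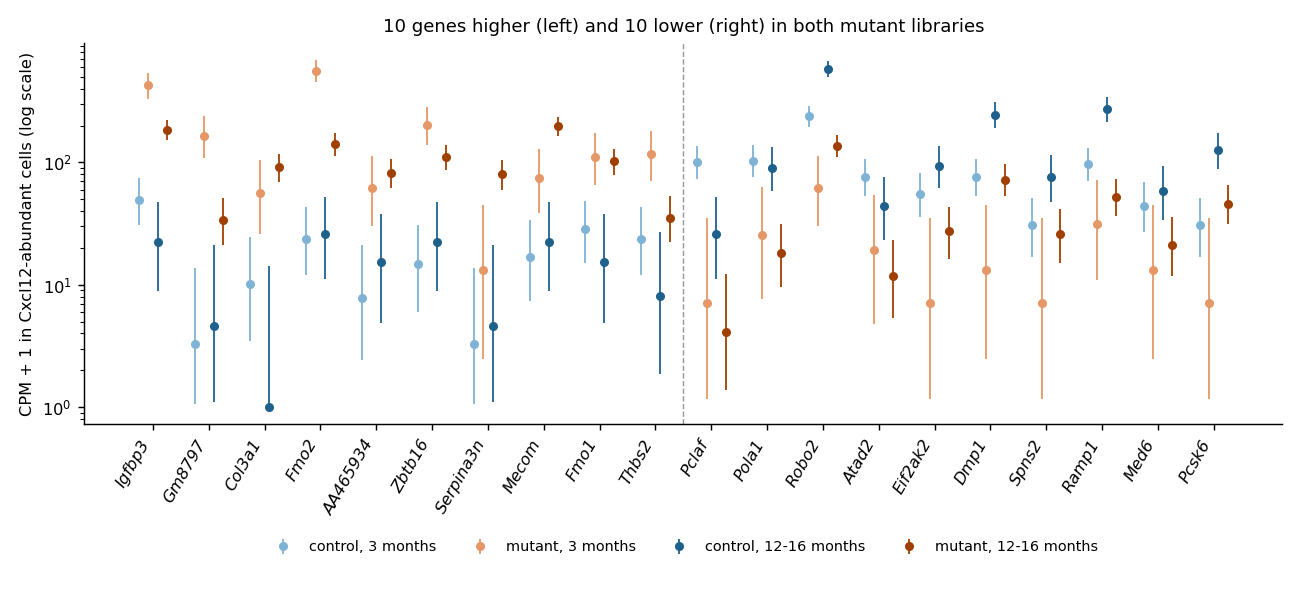
CPM + 1 (log axis) with exact 95% counting intervals in the Cxcl12-abundant cells of each library, for the 10 genes highest (left of the dashed line) and the 10 lowest (right) under the mutant label at both ages. Igfbp3, Fmo2 and Zbtb16 lie higher in both mutant libraries with intervals clear of both controls, while several of the lower genes rest on a handful of UMIs.

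Over all 5500 genes, 1961 were higher and 1196 lower under the mutant label at both ages (1542 and 1527 with TMM factors), and the lists are read against these counts. Marrow stromal genes stood higher when all members were summed. Of 19 compared, 16 were higher at both ages and none lower at both, with median log2 ratios of 0.89 and 0.69, and 14 were higher and 1 lower with TMM factors. Hp, which was among the 16, was lower under the mutant label in members of the older libraries with Xist and no Y-linked transcript. In those cells it was at 1251 CPM in the control and 888 CPM in the mutant library. Within the cells with Adipoq, Hp was lower under the mutant label at both ages, at 3615 and 2914 CPM and at 5421 and 3724 CPM. Trf, Foxc1 and Cxcl14 of the same list were lower there at both ages too. Ebf3, Vcam1 and Chrdl1 were higher there at both, Chrdl1 at 12 to 16 months only at 1007 and 1008 CPM. Over all members, Ebf3 was 2.66-fold (2.15 to 3.27) and 2.71-fold (2.21 to 3.34), Vcam1 2.51-fold (2.00 to 3.14) and 2.04-fold (1.63 to 2.56), Gas6 3.42-fold (2.93 to 3.998) and 1.48-fold (1.29 to 1.71). At 12 to 16 months Gas6 was lower under the mutant label in cells with Adipoq, at 2669 and 2467 CPM. In members with at least 10 Cxcl12 UMIs and no Adipoq it was lower too, at 820 and 737 CPM. At 3 months Gas6 was higher in both groups. Vcam1 at 12 to 16 months was at 1208 and 1217 CPM in the former group and at 210 and 459 CPM in the latter. Among the rule's genes, which chose the cells, Cxcl12 was 1.79-fold (1.69 to 1.90) and 1.61-fold (1.53 to 1.69) and Adipoq 0.459-fold (0.337 to 0.617) and 1.83-fold (1.45 to 2.31). Within the cells with Adipoq, Cxcl12 was lower under the mutant label at both ages, at 19411 and 17466 CPM and at 23782 and 21381 CPM. In members with at least 10 Cxcl12 UMIs and no Adipoq it was higher, at 3692 and 9835 CPM and at 4901 and 6182 CPM. In the older control and mutant libraries, members with Xist and no Y-linked transcript had Cxcl12 at 6365 and 6714 CPM. In these cells Kitl was at 711 and 635 CPM, Lepr at 816 and 621 CPM and Adipoq at 209 and 365 CPM. Of 19 osteogenic genes 8 were lower at both ages and 2 higher, with medians of −0.68 and −0.42. These include the Col1a1-high cells, 1 in the control and 0 in the mutant library at 3 months. In the core at 3 months Col1a1 was 0.849-fold, Sparc 0.881-fold, Col1a2 1.17-fold and Ibsp 1.16-fold, and no list median was computed there. Over all members, Spp1 (osteopontin) was 0.197-fold (0.185 to 0.210) and 0.659-fold (0.631 to 0.687). In members with at least 10 Cxcl12 UMIs and no Adipoq it was also lower, at 30397 and 7172 CPM and at 23550 and 12955 CPM. With Adipoq it was higher, at 4961 and 7837 CPM and at 0 and 1076 CPM, but 1 cell held 337 of 538 UMIs in the control library at 3 months, 1 held 436 of 468 in the mutant library, and the value of 0 comes from 3 cells. Runx2 was 1.06-fold (0.943 to 1.19) and 0.972-fold (0.897 to 1.05). Of 11 niche signals 7 were higher at both ages, but 4 with TMM factors, where the median at 3 months was 0.00, a share near that of all genes. Of the 8 ERK target and feedback genes compared, 3 (Dusp6, Etv1 and Spry2) were higher at both ages and none lower, a share near that of all genes, and 1 was lower with TMM factors. Complement C4b was 2.93-fold (2.15 to 3.99) and 3.05-fold (2.35 to 4.03).

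The make-up of the members also differed between libraries, and its part in these ratios was not tested. Cells with Adipoq were 37.5%, 26.7%, 20% and 47.5% of members, lower under the mutant label at 3 months and higher at 12 to 16 months with overlapping intervals, and a summed level also follows the number of cells of each kind. With equal weight for cells with Adipoq and cells with at least 10 Cxcl12 UMIs and no Adipoq, and the other 24 members left out, 71 genes were at least 2-fold higher and 32 lower at both ages. Without the 11 cells alone the counts were 103 and 44. The libraries also mixed cells with Xist only and with Y-linked transcripts only (Ddx3y, Eif2s3y, Kdm5d or Uty). Such cells numbered 20 and 3, 14 and 0, 10 and 4, and 26 and 25 among members. In the mutant library at 12 to 16 months, 25 of 69 passing cells with Y-linked transcripts only were members (36.2%, 24.99 to 48.7), against 26 of 291 with Xist only (8.93%, 5.92 to 12.8). Adipoq was read in 17 of those 25 and in 8 of those 26. In that library Igfbp3 was at 323 CPM in the former and 80.5 CPM in the latter, Fmo2 at 247 and 63.2 CPM, Zbtb16 at 191 and 48.9 CPM, Serpina3n at 163 and 11.5 CPM, and Mecom at 83.7 and 264 CPM. Among members with Xist only, the control library of that age had Igfbp3 and Zbtb16 at 33.1 CPM each, Fmo2 at 22.04, Serpina3n at 5.51 and Mecom at 16.5 CPM, on 1 to 6 UMIs. For Igfbp3, Fmo2, Zbtb16 and Serpina3n the mutant value was thus closer to the control value than over all members, and Zbtb16 was less than 2-fold apart. For Mecom it was further away. With members carrying Xist only, 78 genes were at least 2-fold higher at both ages.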

How the data were processed

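The deposited files are UMI counts of each gene in each cell barcode, 1 matrix per library. Per the labels the authors made these counts with Cell Ranger 8.0.0 on mm10 from 10x 3′ libraries. The correction for ambient RNA and the integration in the study's methods were not repeated. Every gene named has its GRCm38 position from GENCODE, matched for 32158 of 32286 listed genes, and 38 symbols are listed more than once. The cells and gene lists were chosen with earlier results of these data known.

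Cells had more than 750 UMIs, more than 500 genes and under 7% mitochondrial UMIs. Counts were summed over the cells of a group in each library and given as CPM. Genes needed 50 UMIs, and 0.5 was added to each count where genes were ranked. Each condition is 1 library, so no difference was tested, and differences are given as folds of at least 4 (members against other cells) or 2 (mutant label), with 95% exact intervals (Poisson for CPM, conditional binomial for ratios, Clopper-Pearson for shares). Where a group had no UMI, a fold was computed against 3 counts and written as at least or at most. Ratios in lists include the added 0.5. Named genes were those of the rule and of the lists, the 25 highest and 15 lowest by their smallest log2 ratio over libraries, and the 10 highest and 10 lowest under the mutant label by the smaller ratio, found in at least 10 members. Genes given for the Adipoq division and for correlations were added after the values were seen. For shares at equal depth, cells were thinned to 1900 UMIs (mean of 20 draws, 1 draw for chondrocytes). Osteoblast-lineage cells outside the rule had at least 2 Runx2 UMIs and 3 of Sp7, Ibsp, Alpl, Bglap, Bglap2 and Dmp1, and mural cells at least 5 UMIs of mural genes. Doublets were called with Scrublet in scanpy 1.11.5 at an assumed rate of 6% and kept, except in an alternative. Alternatives were per-cell means, edgeR 4.0.16 TMM factors, other UMI minimums, leaving out each library and leaving out 11 cells. Scripts ran in Python 3.11.15 (scipy 1.17.1, pandas 2.3.3, numpy 2.4.6) and were tested on simulated data.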

Additional observations from a re-analysis of the deposited data

Results flagged for a closer look

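For 12 genes the mutant-to-control ratio lay on opposite sides of 1 at the 2 ages with counting intervals well apart. These differences between ages were not tested, since each rests on 1 library per condition. Ratios are given for 3 months and then for 12 to 16 months. Mural genes and Fabp4 had ratios above 1 at the first age: Fabp4 stood at 6.35 and 0.414, Acta2 at 10.4 and 0.229, Tagln at 5.14 and 0.329, and Myh11 at 9.49 and 0.195. All UMIs of Fabp4 and Acta2 came from the 8 mural-marked cells. Osteocalcin genes ran the other way, with Bglap at 0.0170 and 4.49, Bglap2 at 0.0179 and 5.27, and Bglap3 at 0.0186 and 3.27. Without the 11 mural-marked or Col1a1-high cells Bglap was at 0.620 and 0.895, Bglap2 at 0.478 and 1.86, and Bglap3 at 0.306 and 0.996. These 3 genes are near-identical copies whose reads may be split between them.

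The cartilage collagens Col2a1 (0.454 and 2.18) and Col11a1 (0.303 and 2.12) were at 0.942 and 2.04 and at 2.04 and 0.773 without the 11 cells. The early response gene Ier2 was at 0.332 and 3.99 with all members and at 0.582 and 3.98 without them. Mki67, a marker of dividing cells, had no UMI in the mutant library at 3 months and none in the control library at 12 to 16 months, so its ratios of at most 0.236 and at least 2.31 rest on 34 UMIs in 4 cells and 16 UMIs in 2 cells. Kcnq3, read almost only in cells with Adipoq, was at 0.130 (0.0153 to 0.501) and 13.0 (4.95 to 48.5), with 41, 2, 4 and 120 UMIs.

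Outside the passing cells, 4 barcodes of the control library at 3 months and 8 of the mutant library at 12 to 16 months held at least 10 Cxcl12 UMIs but failed the cell filters, and they entered no comparison.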

How the results depend on the processing

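No paired test was run. Each condition is 1 library, and members were set against the other cells of their own library by fold only. After thinning to 750 UMIs with the changed rule (2 Cxcl12 UMIs, no Acan UMI, no second criterion), the share of members was 1.95% in the control library at 3 months. It was then 9.26% in the mutant library at 12 to 16 months. Over cells with little Acan and no Ptprc it was 18.75%, 27.8%, 38.5% and 49.2% by library. Genes at least 4-fold higher than in the other cells numbered 133, or 82 with a minimum of 200 UMIs, and 153 to 172 without each library in turn. Those at least 4-fold lower numbered 35, or 86 from per-cell means, 53 and 14 with minimums of 20 and 200 UMIs, 16 with 2 added to each count, and 46 to 173 without each library in turn. Leaving a library out can only keep or raise either count. Added after seeing the data, the lower count was 75 without the 11 cells and 17 with counts of 0 replaced by 3. Under the mutant label 118 genes were higher, or 75 with TMM factors and 240 and 26 with minimums of 20 and 200 UMIs. The 33 lower genes were 62 from per-cell means and 125 and 7 with those minimums. In alternatives added after seeing the data, 78 were higher in members with Xist only, and 71 with equal weight for cells with Adipoq and cells with at least 10 Cxcl12 UMIs and no Adipoq, which also left out the other 24 members. Genes higher made up 79.2% of those past 4-fold and 66% with TMM factors, and 78.1% and 61.0% under the mutant label. Of 1280 gene levels, 7 moved past their counting interval without doublets, 274 as per-cell means and 277 without the 11 cells. The cause of these shifts was not tested. Depth limits genes with few UMIs, and 1 library per condition leaves the spread between mice unknown.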
